A study of Mus musculus with 18 samples.

Results

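The potassium channel genes of the mouse, taken as the protein-coding genes whose symbols start with Kcn in RefSeq's GRCm38.p6 annotation, numbered 94 of 21774 nuclear protein-coding genes. They were described by the consensus intervals of accessible chromatin found in each gene and 10 kb on either side of it. The assay was ATAC-seq, which uses a transposase to insert adapters wherever DNA is open. It was run on cultured cortical neurons of CD1 mouse embryos (stage E14.5-15). Lentiviruses carrying short hairpin RNAs (sh) went onto the cells on day 6, harvest followed on day 11, and cytosine arabinoside at 2 µM, an agent that kills dividing cells, was given in all groups. The 18 samples form 4 groups, each with 2 hairpins, so that no group is free of virus. They are shOpa1 and shAtf4 together (5 samples), shOpa1 with shScrambled (5), shControl with shAtf4 (3) and shControl with shScrambled (5). Opa1 fuses the inner membranes of mitochondria, and Atf4 switches on genes of the stress response that follows when mitochondria fail.

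The data are 1 list of intervals for the whole series, and no interval carries a value for any sample. No knockdown can therefore be compared with its control, no value has a spread over cultures, the depth of each sample is unknown, and no test is given. Ranks and shares below describe the consensus set alone. Among marker lists, all 6 pan-neuronal genes and all 4 inhibitory genes had an interval within 1000 bp of a gene end, as did 4 of 5 excitatory, 3 of 5 astrocyte, 4 of 5 oligodendrocyte lineage, 3 of 5 microglia, 2 of 3 vascular and 2 of 5 genes from outside the brain. Over all coding genes the share was 70.4%, near that of several of these short lists, so the counts do not tell the cell types apart. Which cells an interval comes from is not recorded.

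Potassium channels let potassium leave the cell and so set the resting potential, end the action potential and limit repeated firing. Voltage-gated alpha subunits (Kcna, Kcnb, Kcnc, Kcnd, Kcnh, Kcnq) open on depolarization, inward rectifiers (Kcnj) and two-pore channels (Kcnk) act near rest, and calcium- or sodium-activated channels (Kcnma, Kcnn, Kcnt) open when those ions enter the cell. Kcnu1, a relative of this last class, answers to a rise in pH in sperm. Modifier alpha subunits (Kcnf, Kcng, Kcns, Kcnv) form no working channel alone and join Kcnb subunits, and accessory proteins (Kcnab, Kcne, Kcnip, Kcnmb) change the traffic or gating of other channels.

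The start of transcription was known for 69 members, which RefSeq's promoter table (GRCm38.p6) covers with 94 windows, each from 250 bases before a start to 50 bases after it. The 4 windows below show how far base composition and accessibility went together, with every CG dinucleotide in capitals. The first 2 lay wholly inside the 2 widest intervals of the 94 genes, and the last 2 touched no interval.
Kcng3 (chr17:83631846-83632145, minus strand): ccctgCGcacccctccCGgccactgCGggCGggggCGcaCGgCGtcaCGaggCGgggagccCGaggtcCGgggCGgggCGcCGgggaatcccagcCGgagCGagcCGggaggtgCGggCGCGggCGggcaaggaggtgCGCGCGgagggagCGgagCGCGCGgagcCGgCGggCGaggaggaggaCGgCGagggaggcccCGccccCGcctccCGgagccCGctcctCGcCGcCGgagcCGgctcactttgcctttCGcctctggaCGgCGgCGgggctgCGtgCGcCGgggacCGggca
Kcnd3 (chr3:105451640-105451939, plus strand): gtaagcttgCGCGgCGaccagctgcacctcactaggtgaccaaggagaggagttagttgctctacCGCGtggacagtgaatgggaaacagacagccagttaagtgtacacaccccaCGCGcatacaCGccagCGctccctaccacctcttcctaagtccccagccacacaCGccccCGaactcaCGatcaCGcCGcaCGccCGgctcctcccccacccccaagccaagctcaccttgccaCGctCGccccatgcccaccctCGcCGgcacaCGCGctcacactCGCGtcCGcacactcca
Kcnk16 (chr14:20269220-20269519, minus strand): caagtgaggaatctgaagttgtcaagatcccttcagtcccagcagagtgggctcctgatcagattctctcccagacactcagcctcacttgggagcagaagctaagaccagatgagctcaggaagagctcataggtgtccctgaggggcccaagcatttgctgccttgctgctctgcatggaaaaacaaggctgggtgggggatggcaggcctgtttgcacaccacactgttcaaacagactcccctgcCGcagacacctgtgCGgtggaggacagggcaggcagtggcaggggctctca
Kcnj4 (chr15:79505192-79505491, minus strand): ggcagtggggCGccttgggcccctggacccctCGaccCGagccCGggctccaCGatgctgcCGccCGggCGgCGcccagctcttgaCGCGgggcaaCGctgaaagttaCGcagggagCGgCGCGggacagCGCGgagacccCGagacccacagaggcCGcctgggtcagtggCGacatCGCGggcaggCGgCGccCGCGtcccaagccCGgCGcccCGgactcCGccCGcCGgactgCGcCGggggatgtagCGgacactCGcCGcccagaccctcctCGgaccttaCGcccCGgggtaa
The window of Kcng3 held 49 CG dinucleotides, that of Kcnd3 25, that of Kcnk16 2 and that of Kcnj4 41. Kcnk16 encodes a channel known from pancreatic islets, and its CG-poor start fell outside every interval. Kcnj4 encodes an inward rectifier of forebrain neurons, and its CG-rich start lay between intervals, 352 bp from the nearest on the lower side and 223 bp from the nearest on the upper side. This start is the only one in the table for Kcnj4 and lies 7.27 kb inside the outermost end of the gene.

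As a list, Kcn genes held more intervals than coding genes of their length. The 94 windows contained 1606 different intervals, 0.759% of the 211674 on nuclear chromosomes. Only 6 of these were counted for 2 members, 4 for Kcnip1 and Kcnmb1, which lies within Kcnip1, and 2 for the neighbours Kcnj9 and Kcnj10. The number per gene ran from 1 to 145 with a median of 10.5 and quartiles of 5 and 21, against a median of 5 over all coding genes. Counts below refer to this window of gene and flanks, and so do the lengths given beside them. Kcn genes are longer, with a median length of 32.7 kb against 17.2 kb, and the count grows with length (Spearman's rho 0.79 across the 94 members, a description over genes, whose windows differ in size). Each member was therefore ranked among the 200 coding genes outside the list that are nearest to it in length. The median percentile of the members was 74.3, and 61 of 94 had more intervals than the median of those genes (64.9%, against 44.0% of all coding genes measured in the same way). At least 2 times that median was reached by 30 members (31.9%, against 16.7% of the 20084 coding genes for which the median was above 0), and 24 stood at or above the 90th percentile (25.5%, against 10.3%). At most 0.5 times the median was found for 10 members (10.6%, against 26.7%). Genes are not replicates, and no test was run on these shares.

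**Figure D1:**
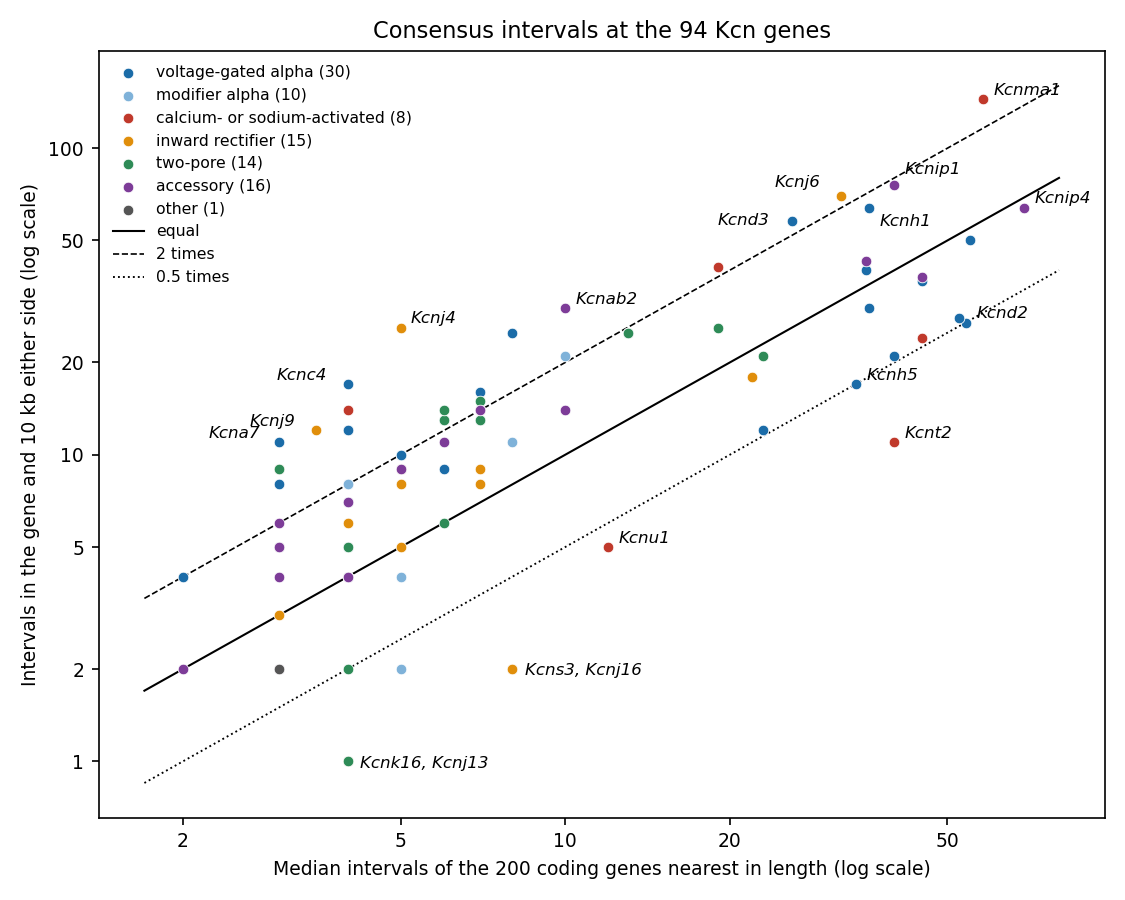
Number of intervals in each Kcn gene and 10 kb either side, against the median of the 200 coding genes nearest in length, both on log scales, with colours for the class of channel and lines for equal, 2 times and 0.5 times; some points lie on top of each other. Kcnj4 stands highest above the lines with 26 intervals against a median of 5, and Kcnt2 far below with 11 against 40.

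Intervals covered a median of 9.77% of a member's window, against 6.03% over all coding genes, with a range of 1.03% at Kcnj16 to 27.5% at Kcnc4. Single intervals were of usual width, with a median of 433 bp against 425 bp for all nuclear intervals, and 39.9% of them were at least 500 bp wide, against 38.3%. The greater coverage thus went with a greater number of intervals. Intervals inside the gene ranked at a median percentile of 71.1 among genes near in length and those of the 10 kb flanks at 67.6. Members had few coding neighbours. Their windows touched a median of 0 other coding genes, against 1 over all coding genes, and ranked at a median percentile of 32.5 for that number. The 43 members with another coding gene in the window had a median percentile of 83.5 for intervals, and the 51 with none had 68.5. Of these 51, 29 were above the median of genes near in length (44.0% of all coding genes were).

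The difference from genes near in length was larger away from starts of transcription than over them. Of the 69 members in the promoter table, 51 had an interval over a start window (73.9%), against 64.0% of the 17492 coding genes in it, but the coding genes nearest in length to the members averaged 75.2%. The interval over the start had a median width of 1296 bp at these 51 members and 1162 bp at 11136 other coding genes. Between 1 and 2 kb downstream of the start 43.5% of members had an interval, against 28.2% for genes near in length, and between 2 and 3 kb downstream 31.9% did, against 12.3%. Between 1 and 2 kb upstream the shares were 30.4% and 16.2%. A wide interval over the start can reach past 1 kb, as at Kcna2, and then counts there too. How many did so was not counted. Of the 1606 intervals, 1401 (87.2%) had no end of any coding gene within 1000 bp. The same share over all nuclear intervals was not counted, so 87.2% cannot be called high or low. In a count of such intervals alone, made after the other counts were seen, members had a median of 7.5 against 2 for all coding genes, a median percentile of 75.9, and 47 of 94 reached at least 2 times the median of genes near in length (50.0%, against 26.7% of 19786 coding genes).

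**Figure D2:**
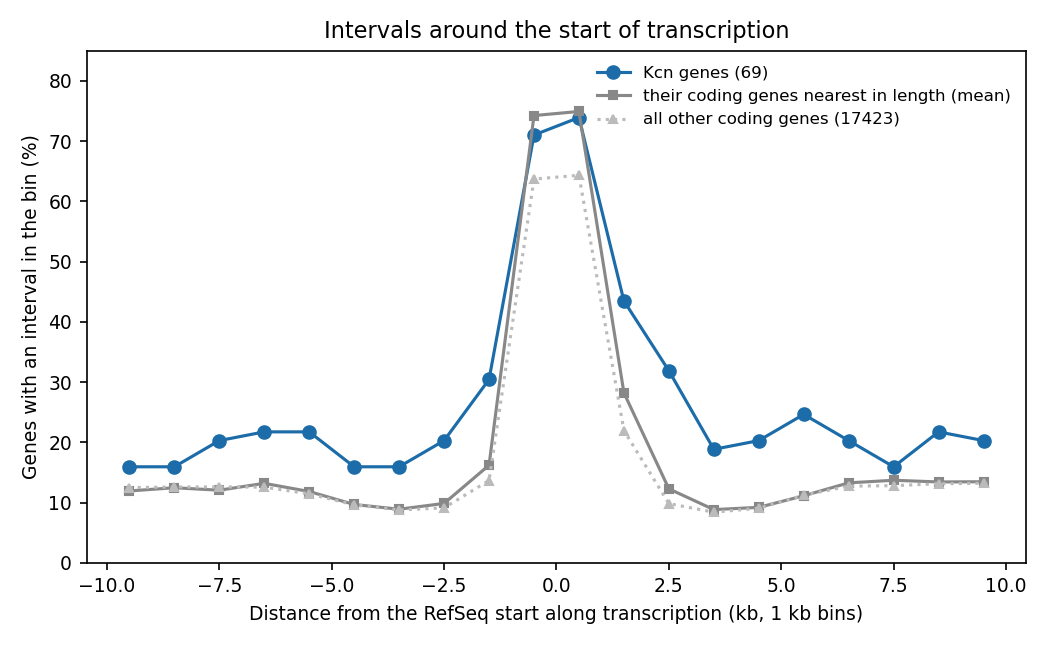
Share of genes with an interval in each 1 kb bin by distance from the RefSeq start, for 69 Kcn genes, for the coding genes nearest to each of them in length (mean over members) and for 17423 other coding genes. In the first 1 kb downstream of the start, Kcn genes (73.9%) and genes near in length (74.9%) lie close together, and other coding genes stand at 64.3%. In the first 1 kb upstream the Kcn line is below that of genes near in length (71.0% against 74.2%). Further from the start on either side the Kcn line is the higher, for example 31.9% against 12.3% between 2 and 3 kb downstream.

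Of the 94 members, 80 had an interval within 1000 bp of a gene end (85.1%), against 70.4% of coding genes and 79.6% of the genes nearest in length. All 30 voltage-gated alpha subunits did, and 19 of the 20 with a known start had an interval over it. The share over a start was 64.0% for all coding genes and averaged 75.2% for genes nearest in length to the members with a listed start. The class had a median of 13 intervals and a median percentile of 85. At least 2 times the median of genes near in length was reached by 13 of 30 (16.7% of coding genes did). The exception at the start was Kcnh6, of the ERG group, whose RefSeq start touched no interval although 10 lay in its window. The only interval within 1000 bp of an end of Kcnh6 also lay at an end of Dcaf7.

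Kcna genes encode Shaker-type channels, some of which sit along axons. They had 4 to 11 intervals, and 7 of 8 exceeded the median of genes near in length (44.0% of all coding genes did). Kcna7, known from muscle, had 11 intervals in 25.4 kb against a median of 3, and 5 of these lay at ends of other coding genes. Kcna5, known from heart and smooth muscle, had 8 against 3, with no other coding gene in its window and 7 of the 8 outside the gene itself. Kcna2, a main axonal subunit, had 7 against 4, and 1 of them was the third widest interval of the whole list of members, 2378 bp on chromosome 3 from 107101040 to 107103417. It covered the RefSeq start, which lies inside the gene. Kcna1, its frequent partner, had 4 against 4, but a single interval of 2285 bp, from 126644101 to 126646385 on chromosome 6, made up much of the 15.6% of its window that was covered. Counts and covered length thus ranked this gene differently, at the 47.5th and 86.5th percentile.

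Kcnc genes encode the fast channels that let neurons fire at high rates. Kcnc4 had 17 intervals against a median of 4, the second highest ratio of all members, and the greatest coverage at 27.5%. Of the 17, 4 lay at an end of its neighbour Slc6a17. Kcnc1 had 16 against 7, with none at another gene's end. Kcnc2 had 12 against 23, at the 21.3rd percentile. All 4 of its listed starts lay in 1 interval of 1677 bp, while the longest stretch of the window without an interval was 71.1 kb.

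Kcnd genes carry the A-type current of dendrites. Kcnd3 had 58 intervals in 242 kb against a median of 26, and the widest, of 2415 bp (chromosome 3, 105450964 to 105453378), lay over the start printed above. Kcnd2 had 27 intervals in 534 kb against a median of 54. Its start also lay in a wide interval, of 1628 bp. Kcnd1, on chromosome X, had 5 against 4, all of them outside the gene body.

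Kcnb genes encode delayed rectifiers of the cell body. Kcnb2 had 37 intervals against a median of 45, in a window of 457 kb. Among Kcnq genes, some of whose products carry the M-current in neurons, Kcnq5 had the most intervals, 50 in 584 kb, which was near its median of 55. Of its listed starts, the inner one lay in an interval of 2260 bp and the outermost one, 708 bp away, lay outside it. Kcnq3, a subunit of M-current channels, had 40 against 35.5 and Kcnq1, known from heart and ear, 30 against 36.

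Kcnh genes encode the EAG, ERG and ELK channels. Kcnh3, an ELK channel of forebrain neurons, had 12 intervals against a median of 4, with 4 at ends of other coding genes. Kcnh2, the ERG channel of the heart, had 13 against 6 and Kcnh6 10 against 5. Kcnh4 had 9 against 5, with 4 at ends of other coding genes. Kcnh1, an EAG channel, had 64 intervals in 341 kb against a median of 36. Its close relative Kcnh5 had 17 in 300.1 kb against 34, the ELK gene Kcnh8 had 21 in 396 kb against 40 and the ERG gene Kcnh7 had 28 in 511 kb against 52.5. The 3 last-named genes all had an interval over the start. In Kcnh7 the longest stretch without an interval, 104.4 kb, was the longest in any member.

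Modifier alpha subunits had the lowest median count of the classes with more than 1 member, 4.5. All 10 had an interval at an end, where 70.4% of all coding genes and 79.6% of the genes nearest in length to all members did. The median of genes near in length was exceeded by 5 of 10, close to the 44.0% of all coding genes. Kcng3 carried the widest interval of all members, 2444 bp on chromosome 17 from 83630775 to 83633218, over the first start printed above, among 11 intervals against a median of 8. Kcng2 had the most of the class, 21 against 10. Kcnf1 had 5 against 3 and Kcns2 5 against 4. Kcns3 had 2 against 8, and 1 of these, of 1446 bp, lay over a start. Kcnv1 had 2 against 5, of 1571 and 292 bp, and Kcnv2, known from photoreceptors, had 4 against 5.

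**Figure D3:**
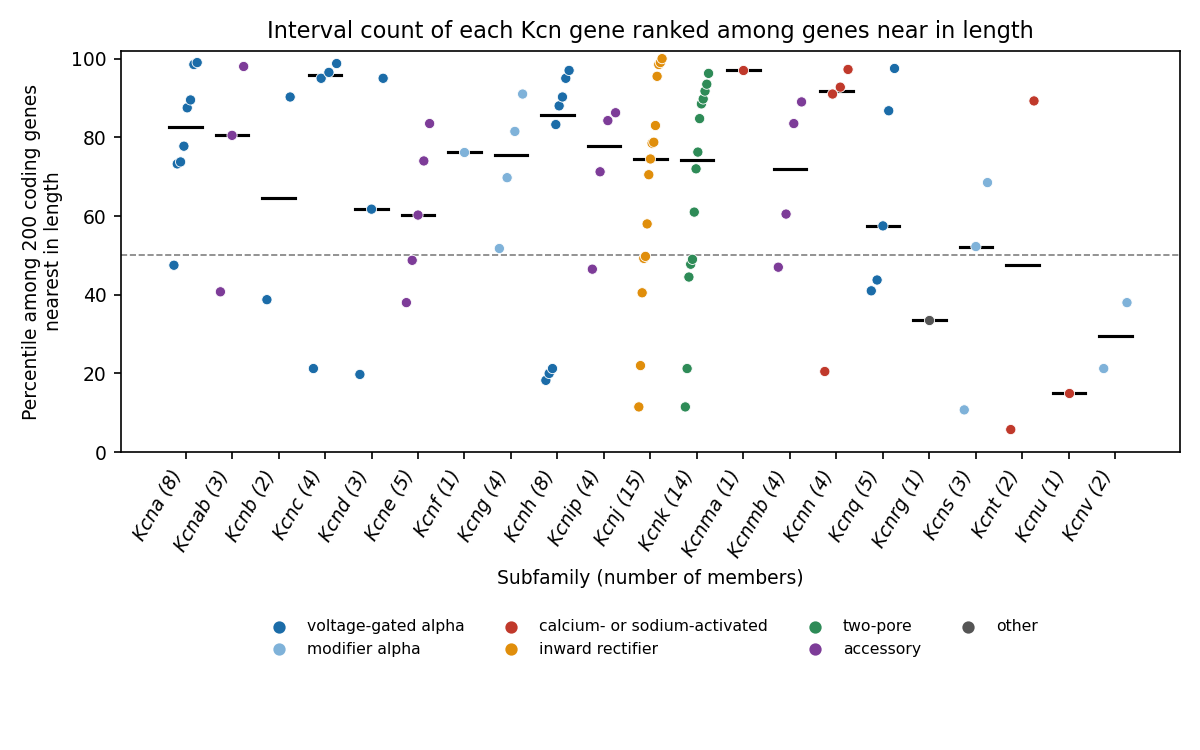
Percentile of each Kcn gene's interval count among the 200 coding genes nearest in length, by subfamily, with a bar at each subfamily's median and a dashed line at the 50th percentile. Members of 1 subfamily often stand far apart, as in Kcnc, where Kcnc4 lies at the 98.8th percentile and Kcnc2 at the 21.3rd.

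Calcium- and sodium-activated channels ran from the top of the list to its foot. Kcnma1, which encodes the large-conductance BK channel, had 145 intervals in 733 kb, the most of any member, against a median of 58. Of the small-conductance SK channel genes, Kcnn1 had 14 against 4, with 5 at ends of other coding genes, and Kcnn3 had 41 in 172 kb against 19. Kcnn2 had 24 in 437 kb against 45. Kcnn4, the intermediate-conductance channel of blood cells and epithelia, had 9 against 5, and its start touched no interval. Kcnt1 and Kcnt2 encode sodium-activated channels. Kcnt1 had 14 intervals in 74.5 kb against 7, and Kcnt2 had 11 in 388 kb against 40, the lowest percentile of all members at 5.75. Its start lay in an interval of 594 bp, and a stretch of 94.3 kb held none. Kcnu1, the sperm channel, had 5 against 12 and none at either end.

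**Figure D4:**
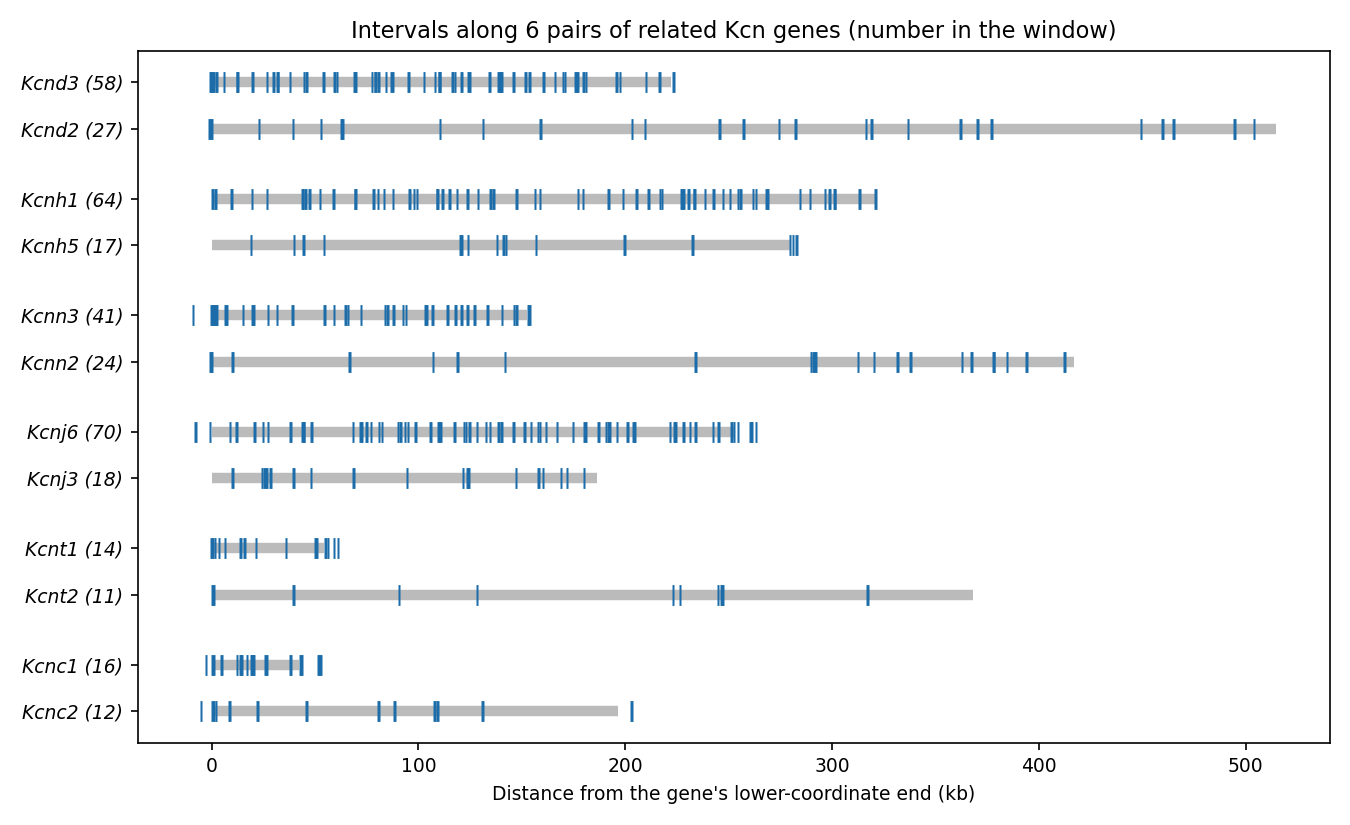
Intervals (blue, drawn at least 1.2 kb wide) along the gene (grey) and 10 kb either side for 6 pairs of related Kcn genes, by distance from the lower-coordinate end of each gene in kb. The pairs were chosen after their counts were seen; the upper gene of each pair has more intervals, for example 58 at Kcnd3 in 242 kb and 27 at Kcnd2 in 534 kb.

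Of 13 inward rectifiers with a listed start, 7 had an interval over it, where 64.0% of all coding genes in the promoter table did, and the 15 of the class had a median of 8 intervals and a median percentile of 74.5. Kcnj4 had 26 intervals against a median of 5, the highest ratio of all members, 17 of them inside the gene and 2 at an end of Kdelr3. Among subunits of the channels that G proteins open, Kcnj6 had 70 in 273 kb against 32, Kcnj9 had 12 against 3.5 with 4 at ends of other coding genes, Kcnj5 had 8 against 5 and Kcnj3 18 against 22. Kcnj14 had 9 against 3, and 4 of them lay at ends of other coding genes. Kcnj10, the channel of astrocytes and other glia, had 9 against 5 and an interval of 974 bp over its start. Kcnj2 had 6 against 4, and the pore subunits of ATP-sensitive channels, Kcnj11 and Kcnj8, had 5 and 3 against 3 each. A set of 4 is known best from epithelia. Kcnj1, of the kidney, had 5 against 5, Kcnj13 had 1 against 4, Kcnj15 had 9 against 7 and Kcnj16 had 2 against 8, and no listed start of these 4 touched an interval. The single interval of Kcnj13 was 419 bp wide and lay 4124 bp outside the gene. Kcnj12 had 8 against 7. The listed starts of Kcnj12 and Kcnj4 touched no interval either, so this was not confined to those 4. For Kcnj1, Kcnj4 and Kcnj12 the listed start lies more than 1000 bp inside the gene.

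Two-pore channels set the leak current. Of 11 with a listed start, 9 had an interval over it (64.0% of all coding genes did, and genes nearest in length to the members averaged 75.2%). The class had a median of 11 intervals and a median percentile of 74.1. Kcnk10 had the most, 26 in 169 kb against 19, and Kcnk15 had 9 against 3, with 3 at ends of other coding genes. Kcnk13, known from microglia, had 25 against 13, with 1 interval of 2310 bp over its start (chromosome 12, 99964064 to 99966373). Kcnk3, an acid-sensitive leak channel, had 14 against 6 and an interval of 2058 bp over an outer end, Kcnk9 had 13 against 7, Kcnk1 had 13 against 6 and Kcnk12 15 against 7. Kcnk2, a stretch-sensitive channel, had 21 against 23. Of its 4 listed starts 3 lay in 1 interval of 1296 bp, and the outermost did not. Kcnk16 had 1 interval of 569 bp against a median of 4, 2299 bp outside the gene. Kcnk18, known from sensory neurons, had 2 against 4, and neither gene had an interval at an end or over its start. Kcnk4, Kcnk5, Kcnk6 and Kcnk7 had 5, 6, 4 and 5 intervals against medians of 4, 6, 4 and 3.

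Accessory subunits had a median of 10 intervals, and 9 of 14 with a listed start had an interval over one. Over all coding genes 64.0% did, and genes nearest in length to the members with a listed start averaged 75.2%. Kcnip genes encode calcium-binding partners of Kcnd channels. Kcnip1 had 76 intervals in 384 kb against 40, Kcnip2 had 9 against 5, Kcnip3 14 against 10 and Kcnip4, the longest member, 64 in 1156 kb against 69. Each of the 4 had an interval over at least 1 start. In Kcnip4 an interval of 2020 bp lay over a start 239 kb inside the gene (chromosome 5, 49284201 to 49286220). Among beta subunits of Kcna channels, Kcnab2 had 30 against 10, with 3 at ends of other coding genes and 18.1% of its window covered. The interval over its outermost start, of 1895 bp, also lay at an end of Nphp4. Kcnab3 had 6 against 3, with 3 at ends of other coding genes, and Kcnab1 had 38 against 45. Of the BK beta subunits, Kcnmb4, which is expressed in brain, had 14 against 7 and an interval of 1741 bp over its start. Kcnmb2 had 43 against 35.5, Kcnmb3 11 against 6 and Kcnmb1, known from smooth muscle, 4 against 4 with none over its start. Kcne genes encode small membrane proteins best known from heart and epithelia, and 1 of 4 with a listed start, Kcne3, had an interval over it. Kcne1 had 7 against 4, Kcne2 5 against 3, Kcne3 4 against 3, Kcne4 2 against 3 and Kcne1l, on chromosome X, 2 against 2. Kcnrg, a regulator that is not a channel, had 2 against 3, both outside the gene.

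Ranks also differed with length. The 23 genes of 100 kb or more had a median percentile of 43.8. Of these, 9 were above the median of genes near in length and 4 at 2 times or more, namely Kcnma1, Kcnj6, Kcnd3 and Kcnn3. Both counts lie near the shares over coding genes of all lengths, 44.0% and 16.7%. Shares of other coding genes within each length class were not counted. The 27 genes of 30 to 100 kb had a median percentile of 87.5 with 23 above, the 23 of 10 to 30 kb 78.5 with 15 above and the 21 under 10 kb 74.0 with 14 above. All 19 of the long genes with a listed start had an interval over one, as did 87.0% of 1847 other coding genes of 100 kb or more. Along the body of these 19, cut into 10 equal parts from the start of transcription, the share of intervals per part lay between 7.60% (part 8) and 12.04% (part 3), with 11.5% in part 1 and 7.73% in part 10. In the 1847 other genes the shares in those 4 parts were 9.97%, 9.35%, 11.3% and 10.2%. Intervals were pooled over the genes of each set, so genes with many weigh most, such as Kcnma1 with 142 inside the gene.

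Start windows that lay in intervals were richer in CG. The 63 Kcn windows that touched an interval had a median GC content of 62.7% and a median ratio of observed to expected CpG of 0.525, and the 31 that touched none had 52.7% and 0.254. Over all coding genes the GC content and ratio were 61.7% and 0.764 in 13372 windows that touched an interval, and 47% and 0.187 in 7891 that did not. Accessible Kcn windows thus had a lower median ratio than accessible windows in general, but not a lower median GC content. These are medians over windows, and a gene with several listed starts counts several times, as Kcnc2 does with 4. Of 18 members with no start in an interval, 14 had a listed start within 1000 bp of the gene's end, and for Kcnj1, Kcnj4, Kcnj12 and Kcnmb3 the table holds only starts further inside. The 25 members without a window in the table were not classed by start.

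**Figure D5:**
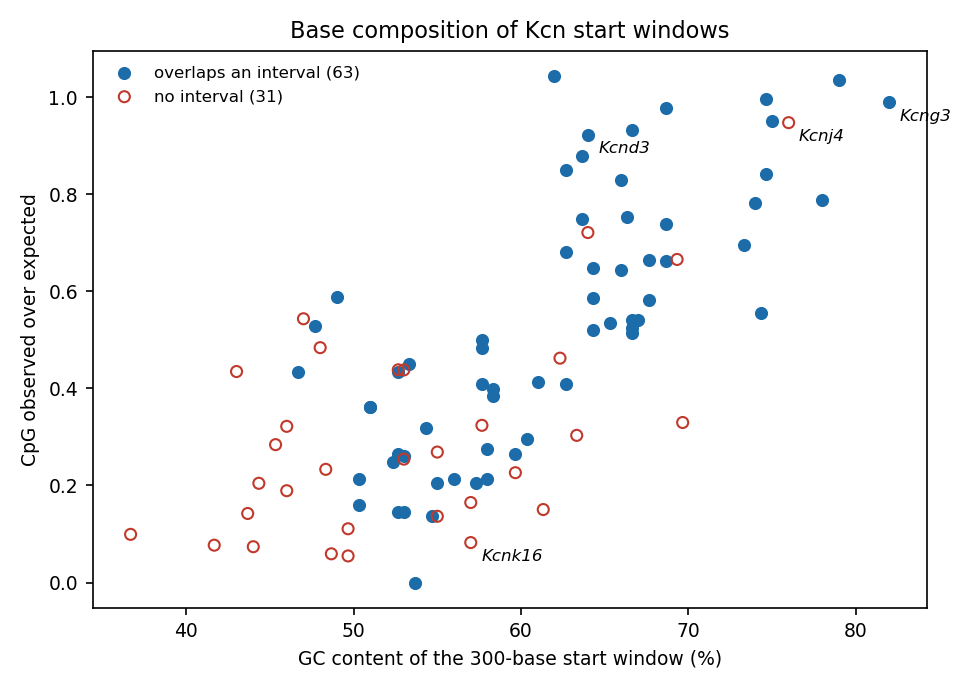
GC content of each 300-base Kcn start window against its ratio of observed to expected CpG, with filled points for the 63 windows that overlap an interval and open points for the 31 that do not. Kcng3 and Kcnd3 lie among the filled CG-rich points and Kcnk16 among the open CG-poor ones, and the window of Kcnj4 is open although CG-rich.

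Short motifs were counted on both strands of these windows. The cyclic AMP response element TGACGTCA occurred in 0 of 94 Kcn windows, against 2.23% of 21263 windows of coding genes. Its shorter form TGACG, which every full element contains, occurred in 18 (19.1%, against 23.6%). TGANTCA, bound by AP-1, occurred in 4 (4.26%, against 6.99%), the E-box CANNTG in 69 (73.4%, against 69.0%) and TATAAA in 5 (5.32%, against 12.6%). CAGCACC, part of the element read by REST, which represses neuronal genes outside neurons, occurred in 10 windows (10.6%, against 7.24%), of which 6 touched an interval. TGATGNAA, a form of the composite site of ATF4, occurred in 2 (2.13%, against 3.60%). The stretches below show both ATF4 matches and 2 of the REST matches, with the match in capitals (GGTGCTG is the complement of CAGCACC read on the other strand). A match is a string of letters and not evidence of binding.
Kcnab1 (chr3:65108945-65108992, plus strand): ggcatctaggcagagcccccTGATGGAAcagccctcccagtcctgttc
Kcne2 (chr16:92295495-92295542, plus strand): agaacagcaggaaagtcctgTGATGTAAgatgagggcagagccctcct
Kcnc2 (chr10:112269959-112270005, plus strand): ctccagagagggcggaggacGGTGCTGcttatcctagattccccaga
Kcnt2 (chr1:140245486-140245532, plus strand): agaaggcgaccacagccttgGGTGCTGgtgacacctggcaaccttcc
The windows of Kcnab1, Kcnc2 and Kcnt2 lay wholly in intervals, of 1348, 1677 and 594 bp, and that of Kcne2 touched none.

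Genes whose proteins partner potassium channels, or that encode the related pacemaker channels, were counted in the same way. Of 29, 27 had an interval at an end (70.4% of all coding genes did), 22 exceeded the median of genes near in length (44.0%), 12 reached 2 times or more (16.7%), and the median percentile was 80.3. Dlg4, the scaffold PSD-95, had 19 intervals against 5, Vapb 22 against 7, the Kcnd partner Dpp6 135 against 64 and Hcn2, a pacemaker channel, 14 against 5. The receptor subunit of ATP-sensitive channels Abcc8 had 21 against 8, and its relative Abcc9 had 9 against 16. Among other ion channel families, all 10 calcium channel alpha-1 genes exceeded the median of genes near in length (median percentile 84.0). Of 10 sodium channel alpha genes 4 did (41.4), and of 19 GABA-A receptor subunit genes 5 did (32.0). The differences between families were not tested.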

How the data were processed

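Chromatin accessibility of 18 cultures of mouse cortical neurons was deposited by the authors as 1 consensus list of intervals with a score for each, in BED layout. Interval names carry MSPC, which combines peak calls of replicates, and among the tools in the submitters' processing notes are MultiQC, deepTools and the peak caller MACS2, with mm10 as genome. For the aligner, the thresholds, the versions and the samples behind the list, no statement was found in the labels. The authors' deposited score was 1000 for all but 22 of the 1606 intervals at Kcn genes and ranked nothing. Read pairs were 50 bp long, per the labels.

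Intervals were counted, by any shared base, in the span of each gene of a RefSeq table (GRCm38.p6, the assembly mm10 names) and 10 kb either side. Left out were 348 genes on scaffolds, 17 without a chromosome, 37 mitochondrial genes and 8 mitochondrial intervals. Each gene was ranked among the 200 coding genes nearest in log length, ties at mid-rank. Gene ends used windows of 1000 bp. In 68 members no interval lay at an end of another coding gene, and among the rest such intervals are named for some members only. The genes named are the 12 highest and 12 lowest ratios to genes near in length, the member with most intervals in each subfamily and the 10 with the widest interval. Others are given for completeness, and some members that the rule or the lists hold are counted in totals but not reported here by name. Members and lists were chosen with earlier results of these data known, and no test was run. Counting and ranking were checked on simulated intervals. Tables were handled with pandas 2.3.3 and numpy 2.4.6 under Python 3.11.15, and plots drawn with matplotlib 3.10.9.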

Additional observations from a re-analysis of the deposited data

How the results depend on the processing

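No paired analysis was possible because the list has no columns for samples, and for the same reason no replicate could be left out. The count of members with an interval at an end (69 to 89 of 94 over 6 alternatives), over a start window (48 and 49 of 69) and at 2 times or more (20 to 43 over 9) stayed within 1.5 times the reported value. Over all coding genes the share at an end was 57.5% to 77.0% in those settings, and over a start window 59.6% and 62.1%. For 2 times or more, the share over all coding genes was not counted in the alternatives. The member counts alone therefore do not show whether that difference from other genes held. The median count per member was 8 with flanks of 2 kb, 23 with flanks of 50 kb, 4 with intervals of at least 500 bp, 10 with midpoints counted and 8.5 without intervals at another gene's end. Over all coding genes it was 3, 14, 2, 4 and 3 in those settings. The median percentile was 70.9, 75, 71, 75.1 and 77.3 in the same settings, 74.9 with scores of 1000 alone, 76.5 and 75.7 with 100 and 400 genes near in length and 74.4 without olfactory, vomeronasal and taste receptor genes among them. Members without an interval numbered 3 with flanks of 2 kb and 4 with intervals of at least 500 bp, and 0 in the others. Over all coding genes the share without an interval was 19.7% and 21.0% in those settings, and between 8.03% and 18.0% in the others. For genes nearest in length to the members it averaged 7.04% with the main setting, and was not counted in the alternatives. Smaller windows and fewer intervals lower the counts by construction, and what else moves them was not tested. Depth is unknown, so a gene with few intervals may have sites below the authors' calling threshold.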

Other observations

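Noncoding genes with Kcn symbols, which the list of members leaves out, also carried intervals, counted here in the gene alone without flanks. Kcnq1ot1, the imprinted antisense RNA that starts within Kcnq1, had 4 intervals in 83.4 kb and at least 1 at an end. The longest stretch of the Kcnq1 window without an interval, 73.9 kb, overlaps Kcnq1ot1. Kcnd3os, whose span overlaps the start of Kcnd3, had 2. Kcnmb4os1 and Kcnmb4os2, at either end of Kcnmb4, had 2 and 1. The lists do not tell which gene of such a pair an interval belongs to.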
